A study of Mus musculus with 24 samples.

Results

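The regulators of G protein signalling (RGS proteins) and Rgs7bp, the protein that anchors some of them at the membrane, were followed in the striatum and cerebellum of mice carrying an expanded huntingtin allele and of wild-type mice. Members were all probe sets whose single gene symbol in the platform annotation was Rgs followed by a number, or Rgs7bp. The rule found 20 of the 18193 genes that have a probe set of their own, with 45 of the 45037 probe sets that were not controls. The rule reads gene symbols and no expression value, but the members were chosen with earlier results of these data known. Total RNA was hybridised to Affymetrix mouse genome arrays, 24 in all. The 4 groups were striatum and cerebellum of HdhQ111/HdhQ111 mice, here Q111, and of Hdh+/Hdh+ mice, labelled Q7/Q7 and here called wild type, with 6 arrays per group. Q111 mice carry the long glutamine repeat in both copies of their own huntingtin gene (Htt, formerly Hdh), so every cell type has the allele. The age is given as 3 to 10 weeks for all groups, and neither sex, strain background nor whether both tissues came from one mouse is recorded in the labels. The replicates are called biological without naming separate mice. A p-value here sets a difference between groups against the scatter of samples within groups, part of which may be technical. The number of arrays limits the precision.

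A G protein is switched on when a receptor makes its alpha subunit take up GTP, and it switches itself off by hydrolysing that GTP. RGS proteins bind the active alpha subunit and speed up the hydrolysis, so they shorten the signal from receptors such as those for dopamine, opioids and acetylcholine. In the striatum the long form of Rgs9 and Rgs4 are known brakes on dopamine and opioid receptor signalling, and in the cerebellum Rgs8 is known from Purkinje cells. The small R4 proteins (here Rgs1, Rgs2, Rgs3, Rgs4, Rgs5, Rgs8, Rgs13, Rgs16 and Rgs18) consist of little beside the RGS domain, except for the long forms of Rgs3. The R7 proteins (Rgs6, Rgs7, Rgs9 and Rgs11) are obligate partners of the beta subunit Gnb5 and are held at membranes by Rgs7bp. The R12 proteins (Rgs10, Rgs12 and Rgs14) and the RZ proteins (Rgs17, Rgs19 and Rgs20) complete the set.

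Of the 20 genes, 10 lie on chromosome 1 in the RefSeq gene table of GRCm38.p6. There Rgs5 is the direct neighbour of Rgs4, Rgs8 that of Rgs16, and Rgs2 that of Rgs13, which is followed by Rgs1. Upstream windows of 250 bases before the transcription start were available for 15 of the 20 genes, 21 windows in all. The windows below are shown because Rgs4, Rgs9 and Rgs2 had the largest striatal excess of mRNA among the genes with a window, and Rgs16 was among the few with a cerebellar excess. They come from RefSeq, build GRCm38.p6, written 5′ to 3′ on the gene's own strand. Rgs4 is at chr1:169747643-169747892 (minus strand), Rgs9 at chr11:109298182-109298431 (minus), Rgs2 at chr1:144004150-144004399 (minus) and Rgs16 at chr1:153740103-153740352 (plus). Capitals mark the letters TGACG (a part of the cyclic AMP response element), TATAAA (the core of a TATA box) or GGGCGG (Sp1 box), or their reverse complements; neighbouring matches may overlap.
Rgs4: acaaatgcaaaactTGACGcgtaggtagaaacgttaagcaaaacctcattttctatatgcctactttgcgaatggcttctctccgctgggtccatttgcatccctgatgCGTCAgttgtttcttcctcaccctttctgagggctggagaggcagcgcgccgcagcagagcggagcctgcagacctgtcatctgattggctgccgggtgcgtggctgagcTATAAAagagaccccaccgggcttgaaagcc
Rgs9: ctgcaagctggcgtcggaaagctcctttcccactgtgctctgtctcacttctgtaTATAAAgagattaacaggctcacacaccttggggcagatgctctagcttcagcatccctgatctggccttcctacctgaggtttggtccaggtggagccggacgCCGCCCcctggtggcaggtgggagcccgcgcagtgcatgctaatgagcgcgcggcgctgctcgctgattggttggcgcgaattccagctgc
Rgs2: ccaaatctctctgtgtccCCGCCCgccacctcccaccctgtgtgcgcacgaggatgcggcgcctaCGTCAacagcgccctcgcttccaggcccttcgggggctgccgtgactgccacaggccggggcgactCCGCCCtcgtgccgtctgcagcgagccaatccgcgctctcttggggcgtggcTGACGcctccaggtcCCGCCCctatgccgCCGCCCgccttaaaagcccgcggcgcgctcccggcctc
Rgs16: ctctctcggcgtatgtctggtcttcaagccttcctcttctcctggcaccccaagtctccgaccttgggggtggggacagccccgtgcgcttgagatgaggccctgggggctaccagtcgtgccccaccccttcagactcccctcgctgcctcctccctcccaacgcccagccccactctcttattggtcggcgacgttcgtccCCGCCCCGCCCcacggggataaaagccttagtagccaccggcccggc
The Rgs4 window held the TGACG element 2 times and a TATAAA 31 bases before the start. The Rgs9 window held a TATAAA 195 bases before the start and 1 Sp1 box. The Rgs2 window held TGACG 2 times and 4 Sp1 boxes, and that of Rgs16 held 2 Sp1 boxes. TGACG occurred in 5 of the 21 windows of the set and in 17.7% of 32817 windows in the whole table, TATAAA in 4 of 21 and 12.4%, the Sp1 box in 10 of 21 and 32.7%, and the full TGACGTCA in 0 of 21 and 1.55%. None of these motifs was in all 3 windows of the striatum-rich genes, and a match is a description of letters, not of bound protein.

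Values are the deposited GCRMA values, read as log2, so that a difference of 1 is a 2-fold change. They ran from -0.77 to 16.33, and tested were probe sets with a mean of 4 or more in either tissue. That left 30 of the 45 RGS probe sets and 16 of the 20 genes, among 20738 probe sets in all. The other 15 probe sets were not tested. They were the only probe sets of Rgs1, Rgs6, Rgs13 and Rgs18, plus further ones for Rgs2, Rgs3, Rgs5, Rgs9, Rgs12, Rgs16 and Rgs20. Both probe sets of Rgs6, an R7 member known from heart and brain, lay between 2.29 and 3.05 on every array. Where several probe sets measure an RGS gene, the one that was brightest on average over the 24 arrays is described, and the others are given by their differences. Genes of the other lists, such as Gnb5 and Gnaq, are read by their brightest probe set only. The hybridisation strength of a probe set sets its level, so levels are compared only between arrays and not between genes. The arrays carried the tissue they were labelled with: 8 striatal projection neuron genes had a mean value of 12.38 in wild-type striatum and 5.69 in wild-type cerebellum, and 6 granule neuron genes 4.38 and 12.53. In bulk tissue, fewer cells of a type and less RNA per cell cannot be told apart.

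The replicate numbers held a pattern that bears on every genotype comparison. In each tissue the mean of all arrays numbered 1 to 3 lay close to the mean of those numbered 4 to 6: the SD over probe sets of this difference was 0.0534 in striatum and 0.0512 in cerebellum, while the SD of the genotype difference was 0.211 and 0.179. No label says what the numbers stand for. Genotype differences within numbers 1 to 3 and within 4 to 6 are therefore given as well.

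Most RGS genes were far from even between the tissues. In wild-type mice, limma called 29 of the 30 RGS probe sets different between striatum and cerebellum, against 71.8% of all probe sets tested. By their brightest probe set it called 16 of 16 RGS genes, against 73.8% of all genes tested. Of the 29, 23 were higher in striatum, against 30.6% of all probe sets, and 6 were higher in cerebellum, against 41.2%. The median difference, striatum minus cerebellum, was 1.70 over the 30 RGS probe sets and -0.09 over all probe sets. In Q111 mice, which share no array with the wild-type comparison, 27 of 30 were called against 71.4% of all, 23 of them higher in striatum (31.3% of all) and 4 lower (40.1% of all), with a median of 1.83. The groups did not overlap for 25 of 30 RGS probe sets in wild type, against 52.2% of all probe sets, and for 26 of 30 in Q111, against 51.2%. Part of these counts follows from the filter: 6 of the 30 probe sets (2 of Rgs4, the dimmer ones of Rgs9 and Rgs20, and those of Rgs11 and Rgs12) had a cerebellar mean under 4 and passed only through the striatum, where they are high. Of the 24 with a mean of 4 or more in both tissues, limma called 23 in wild type against 69.2% of all such probe sets, 17 higher (29% of all) and 6 lower (40.3% of all), and 21 in Q111 against 68.8%. The median of the 24 was 1.18 in wild type. No source used here says whether striatal and cerebellar arrays were normalised in 1 run. The lowest value of an array was 0.36 to 0.38 in striatum and -0.77 to -0.66 in cerebellum, with no overlap. Whether the processing differed between the tissues was not tested, and its part in a tissue difference cannot be told apart.

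**Figure D1:**
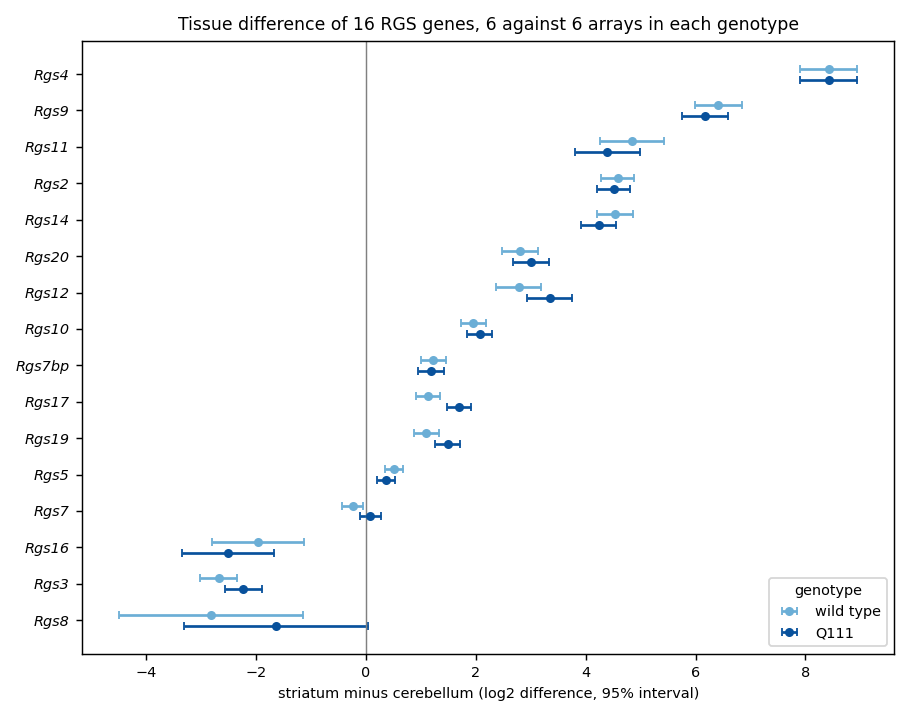
Log2 difference between striatum and cerebellum for each of the 16 RGS genes past the filter, by its brightest probe set, in wild-type and in Q111 mice (6 arrays per group; bars are 95% confidence intervals from limma). Rgs4 stands at 8.42 in both genotypes and Rgs9 above 6, while Rgs3, Rgs8 and Rgs16 lie below 0.

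Rgs4, an R4 protein that acts on Gi and Gq alpha subunits and is abundant in striatum and cortex, had the widest tissue difference of the set. In wild-type striatum its value had a low of 12.49, a median of 12.61 and a high of 13.25, and in wild-type cerebellum 3.00, 4.51 and 5.04. In Q111 striatum the low, median and high were 12.26, 12.43 and 12.53, and in Q111 cerebellum 3.46, 3.97 and 4.60. Every striatal array therefore lay far above every cerebellar one. The difference was 8.42 (SE 0.25; limma adjusted p = 3.72e-19) in wild type and 8.42 (SE 0.25; limma adjusted p = 3.86e-19) in Q111. By this measure Rgs4 ranked 13th of the 10766 genes tested. The cerebellar values are near the low end of the scale, and with all values under 4 set to 4 the wild-type difference was 8.25. The other 2 probe sets of Rgs4 gave 8.33 and 7.29 in wild type, or 7.88 and 5.20 with values under 4 set to 4.

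Between genotypes, Rgs4 missed the threshold in the striatum. The Q111 arrays lay below the wild-type mean in 6 of 6, with 1 narrow stretch of overlap between 12.49 and 12.53. The difference, Q111 minus wild type, was -0.31 (SE 0.25; limma adjusted p = 0.547), and the other 2 probe sets gave -0.39 (limma adjusted p = 0.194) and -0.35 (limma adjusted p = 0.123). The striatal difference was -0.33 within replicate numbers 1 to 3 and -0.30 within 4 to 6. In cerebellum the difference was -0.31 (SE 0.25; limma adjusted p = 0.614), at values near the filter.

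Rgs2, an R4 protein that prefers Gq alpha subunits and is induced by neuronal activity, was the other R4 gene with a large striatal excess. Wild-type striatum had a low of 11.73, a median of 12.27 and a high of 12.31, and wild-type cerebellum 7.32, 7.54 and 7.76. Q111 striatum had 11.48, 11.93 and 12.47, and Q111 cerebellum 7.08, 7.51 and 7.72. The tissues did not overlap in either genotype, and the genotypes overlapped in both tissues. Striatum exceeded cerebellum by 4.59 (SE 0.14; limma adjusted p = 8.89e-19) in wild type and 4.51 (SE 0.14) in Q111, and the genotype difference was -0.17 (SE 0.14; limma adjusted p = 0.567) in striatum and -0.09 (SE 0.14; limma adjusted p = 0.830) in cerebellum. All 3 tested probe sets had a negative difference in striatum, from -0.25 to -0.17, none of them past the threshold.

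Rgs8, an R4 protein of Purkinje cells that also occurs in striatal neurons, moved most from array to array. In wild-type striatum the 6 arrays, numbered 1 to 6, read 6.09, 5.51, 9.41, 8.87, 8.61 and 4.88. In Q111 striatum they read 9.63, 9.43, 9.37, 10.04, 8.88 and 8.85. The wild-type values thus fell into a low set of 3 arrays between 4.88 and 6.09 and a high set of 3 between 8.61 and 9.41, and the Q111 arrays lay together near the high set. In wild-type cerebellum the arrays read 8.15, 11.49, 11.60, 10.93, 10.53 and 7.52, and in Q111 cerebellum 11.57, 11.45, 8.19, 11.89, 11.77 and 11.07. There, 2 wild-type arrays and 1 Q111 array were low, and the groups overlapped.

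The spread of Rgs8 within groups, 1.51 as a pooled SD, ranked 13th widest of the 20738 probe sets, whose median was 0.187. The genotype difference in striatum was 2.14 (SE 0.81; 95% interval 0.46 to 3.81), the largest positive difference of any probe set tested in striatum. It missed the threshold (limma adjusted p = 0.145), with 6 of 6 Q111 arrays above the wild-type mean. In cerebellum the difference was 0.95 (SE 0.81; limma adjusted p = 0.636), with 5 of 6 arrays above. The interaction, the striatal minus the cerebellar genotype difference, was 1.19 (SE 1.14; limma adjusted p = 0.787). Rgs8 was lower in striatum than in cerebellum in wild type (-2.81, SE 0.81; limma adjusted p = 0.00349), though the groups overlapped. The call was kept within numbers 1 to 3 alone (limma adjusted p = 0.0265) and lost within 4 to 6 alone (limma adjusted p = 0.0880). In Q111 the tissue difference was -1.62 (SE 0.81; limma adjusted p = 0.0767).

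**Figure D2:**
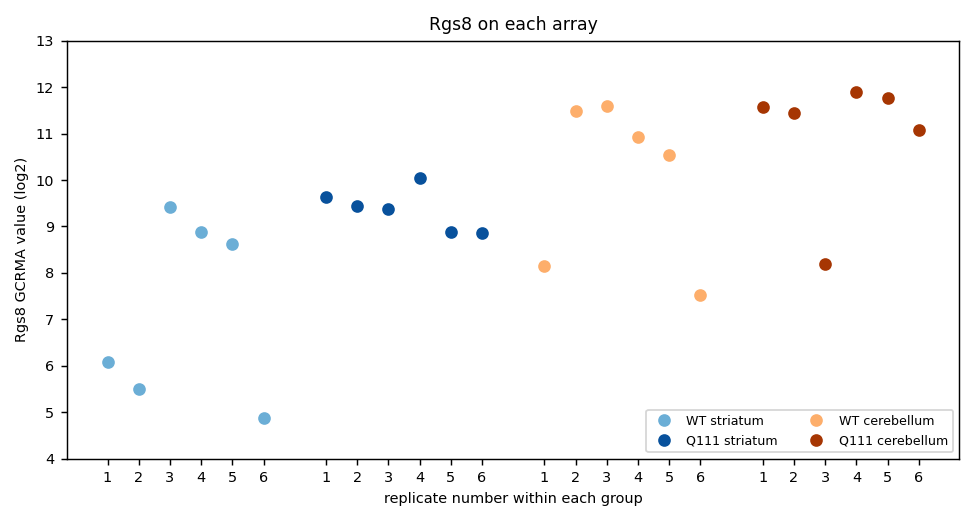
Rgs8 log2 value of each array (points) by replicate number in the 4 groups, 6 arrays per group. Wild-type striatum splits into 3 low and 3 high arrays and Q111 striatum holds none of the low ones, while 2 wild-type arrays and 1 Q111 array are low in cerebellum.

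The measured genes beside Rgs8 on chromosome 1 had narrower spreads than Rgs8, though that of Rgs16 was also wide. Of the 8 nearest neighbours of Rgs8, 5 were measured, with pooled within-group SDs of 0.122 (Dhx9) to 0.752 (Rgs16). Rgs16 ranked 86th widest of the 20738 probe sets. Over the 24 arrays, each taken as its deviation from its group mean, Rgs8 correlated at 0.416 with Npl, its neighbour on one side, and at -0.301 with Rgs16, its neighbour on the other. The most similar probe sets of all by this measure were those of Ccdc102a (0.769), Iqgap2 (0.757), a probe set with no symbol (0.753), Jag2 (0.742) and Tbca (0.736), picked as the highest of 20738. Rgs8 is measured by 1 probe set here, so no second probe set shows the same values.

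Rgs16, an R4 protein known as a circadian and activity-regulated gene, was higher in cerebellum. Wild-type striatum had a low of 3.96, a median of 4.54 and a high of 6.47, and wild-type cerebellum 6.26, 6.79 and 7.57, which overlap slightly. Q111 striatum had 3.55, 5.15 and 5.96, and Q111 cerebellum 6.92, 7.57 and 8.12, which do not. The tissue difference, striatum minus cerebellum, was -1.95 (SE 0.40; limma adjusted p = 0.000149) in wild type and -2.50 (SE 0.40; limma adjusted p = 6.83e-06) in Q111. The genotype difference was 0.16 (SE 0.40; limma adjusted p = 0.877) in striatum and 0.71 (SE 0.40; limma adjusted p = 0.441) in cerebellum, where 6 of 6 Q111 arrays lay above the wild-type mean. The other tested probe set of Rgs16 gave a tissue difference of -1.42 (limma adjusted p = 8.02e-05) in wild type. Its genotype difference was 0.49 (limma adjusted p = 0.353) in striatum and 0.29 (limma adjusted p = 0.674) in cerebellum.

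Rgs3, an R4 protein with long forms that carry a PDZ domain, was also higher in cerebellum. It had a low of 6.31, a median of 6.70 and a high of 7.21 in wild-type striatum, and 9.14, 9.48 and 9.76 in wild-type cerebellum. The tissue difference was -2.67 (SE 0.16; limma adjusted p = 2.76e-13) in wild type and -2.23 (SE 0.16; limma adjusted p = 9.23e-12) in Q111. Both tested probe sets gave this sign without overlap, the other one with -3.07 (limma adjusted p = 1.91e-11) in wild type. The cerebellar genotype difference was -0.35 (SE 0.16; limma adjusted p = 0.335), and the striatal one 0.10 (SE 0.16; limma adjusted p = 0.803). The other probe set gave -0.21 (limma adjusted p = 0.741) in cerebellum and 0.40 (limma adjusted p = 0.362) in striatum.

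Rgs5, an R4 protein best known as a marker of pericytes, the mural cells of small vessels, fell in Q111 striatum. Wild-type striatum had a low of 9.81, a median of 9.95 and a high of 10.24, and Q111 striatum 9.52, 9.71 and 9.79, so the groups did not overlap. The difference was -0.30 (SE 0.08; 95% interval -0.46 to -0.14; limma adjusted p = 0.0407), and it was -0.29 within numbers 1 to 3 and -0.30 within 4 to 6. With the number set in the model the limma adjusted p was 0.0670, with median centring of the arrays 0.0678, and the call was lost without any 1 of 9 of the 12 striatal arrays in turn (all but wild-type arrays 1 and 3 and Q111 array 3; limma adjusted p up to 0.101 among the 24 fits that each left out 1 array). The other 2 tested probe sets gave -0.46 (limma adjusted p = 0.143) and 0.09 (limma adjusted p = 0.902), so they did not share one sign.

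Cerebellar Rgs5 had a low of 9.18, a median of 9.53 and a high of 9.62 in wild type and 9.18, 9.32 and 9.44 in Q111. The difference there was -0.15 (SE 0.08; limma adjusted p = 0.384), and the interaction was -0.14 (SE 0.11; limma adjusted p = 0.716), so a difference between the tissues in this effect was not shown. The mean value of 10 endothelial and mural cell genes ran from 4.92 to 5.24 in wild-type striatum and from 4.81 to 4.99 in Q111 striatum. Of its 6 genes past the filter, 1 fell and 0 rose in Q111 striatum, 5 of the 6 had a negative difference, and Abcc9, Anpep, Kcnj8 and Pecam1 had means under 4. Over all 10766 genes tested, 205 were called lower, 94 were called higher and 6222 had a negative difference in striatum. The part of these cells in the Rgs5 result was not tested.

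Rgs9, the R7 protein whose long form is concentrated in striatal projection neurons, had the second largest tissue difference. Wild-type striatum had a low of 11.12, a median of 12.06 and a high of 12.30, and wild-type cerebellum 5.11, 5.51 and 5.70. Q111 striatum had 11.19, 11.54 and 11.96, and Q111 cerebellum 4.76, 5.48 and 6.00. The tissues lay wide apart in both genotypes, while the genotypes overlapped in both tissues. Striatum exceeded cerebellum by 6.42 (SE 0.20; limma adjusted p = 1.13e-18) in wild type and 6.18 (SE 0.20; limma adjusted p = 2.46e-18) in Q111, the 50th highest of 10766 genes in wild type. The genotype difference was -0.32 (SE 0.20; limma adjusted p = 0.414) in striatum, with 5 of 6 Q111 arrays below the wild-type mean, and -0.08 (SE 0.20; limma adjusted p = 0.906) in cerebellum. The dimmer probe set of Rgs9 gave a wild-type tissue difference of 4.10, or 2.27 with values under 4 set to 4, and a striatal genotype difference of -0.38 (limma adjusted p = 0.434).

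Rgs7, an R7 protein found widely in neurons, was nearly even between the tissues. It had a low of 8.29, a median of 8.41 and a high of 8.72 in wild-type striatum, 8.39, 8.60 and 8.81 in Q111 striatum, 8.51, 8.63 and 8.85 in wild-type cerebellum, and 8.33, 8.51 and 8.71 in Q111 cerebellum. All 4 groups overlapped. The tissue difference was -0.24 (SE 0.09; limma adjusted p = 0.0251) in wild type and 0.08 (SE 0.09; limma adjusted p = 0.446) in Q111; the wild-type call was lost with median centring of the arrays (-0.19; limma adjusted p = 0.0515). It was also lost within numbers 1 to 3 alone (limma adjusted p = 0.213), within 4 to 6 alone (limma adjusted p = 0.1001), and without any 1 of 5 arrays (wild-type striatum 1, 3 and 4, and wild-type cerebellum 4 and 6; limma adjusted p up to 0.0641). The genotype difference was 0.15 (SE 0.09; limma adjusted p = 0.398) in striatum and -0.17 (SE 0.09; limma adjusted p = 0.428) in cerebellum, and the interaction was 0.32 (SE 0.13; limma adjusted p = 0.402).

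Rgs11, an R7 protein best known from retinal bipolar cells, was read well above the low end in striatum only. It had a low of 7.16, a median of 7.36 and a high of 8.11 in wild-type striatum, and 1.93, 2.80 and 3.18 in wild-type cerebellum. Striatum exceeded cerebellum by 4.85 (SE 0.29; limma adjusted p = 1.73e-13) in wild type and 4.40 (SE 0.29; limma adjusted p = 1.16e-12) in Q111. Because the cerebellar arrays were all under 4, the wild-type difference with values under 4 set to 4, 3.52, is the more cautious figure. The striatal genotype difference was -0.33 (SE 0.29; limma adjusted p = 0.580).

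Rgs7bp, the palmitoylated protein that carries R7 complexes to the membrane, was high in both tissues. It had a low of 11.58, a median of 11.85 and a high of 12.13 in wild-type striatum and 11.56, 11.85 and 12.09 in Q111 striatum. In cerebellum it had 10.43, 10.64 and 10.86 in wild type and 10.34, 10.60 and 11.03 in Q111. The genotypes overlapped nearly throughout, and the tissues did not overlap. The tissue difference was 1.23 (SE 0.11; limma adjusted p = 7.78e-10) in wild type and 1.19 (SE 0.11; limma adjusted p = 1.46e-09) in Q111. The genotype difference was -0.05 (95% interval -0.28 to 0.19; limma adjusted p = 0.872) in striatum and -0.01 (95% interval -0.24 to 0.23; limma adjusted p = 0.990) in cerebellum. A further probe set of Rgs7bp gave -0.39 in striatum (SE 0.12; limma adjusted p = 0.0824) and the third one 0.01 (limma adjusted p = 0.981).

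Of the partners of R7 proteins, Gnb5, the beta subunit without which R7 proteins are degraded, fell in Q111 striatum. It was 11.09 ± 0.18 in wild type and 10.77 ± 0.09 in Q111 (SD, n = 6 arrays each), a difference of -0.32 (SE 0.08; limma adjusted p = 0.0314). All 6 Q111 arrays lay below the wild-type mean, the difference was -0.39 within numbers 1 to 3 and -0.26 within 4 to 6, and with the number set in the model the limma adjusted p was 0.0567. In cerebellum the difference was 0.02 (limma adjusted p = 0.962), and the interaction was -0.34 (SE 0.11; limma adjusted p = 0.256). Gnb5 was higher in striatum than in cerebellum by 1.48 in wild type (limma adjusted p = 3.41e-14). Gpr158, an orphan receptor that binds R7 complexes, was higher in striatum by 1.23 in wild type (limma adjusted p = 0.00169), or by 0.95 with values under 4 set to 4. Its genotype difference in striatum was 0.21 (limma adjusted p = 0.783). The anchor Rgs9bp and the receptor Gpr179 were under the filter.

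Rgs14, an R12 protein with a second G protein binding motif that is best known from hippocampal area CA2, was higher in striatum. It had a low of 9.30, a median of 9.68 and a high of 9.84 in wild-type striatum and 9.02, 9.33 and 9.71 in Q111 striatum. In cerebellum it had 4.71, 4.96 and 5.65 in wild type and 4.93, 4.99 and 5.65 in Q111. Striatum exceeded cerebellum by 4.54 (SE 0.16; limma adjusted p = 5.45e-18) in wild type and 4.24 (SE 0.16; limma adjusted p = 2.13e-17) in Q111. The striatal genotype difference was -0.30 (SE 0.16; limma adjusted p = 0.300), with 5 of 6 Q111 arrays below the wild-type mean, and the cerebellar one was 0.00 (SE 0.16; limma adjusted p = 0.995).

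Rgs10, a small R12 protein that is strongly expressed in microglia and also in neurons, had a low of 8.64, a median of 8.93 and a high of 9.10 in wild-type striatum and 9.09, 9.18 and 9.40 in Q111 striatum. The Q111 arrays touched only the top of the wild-type range. The difference was 0.32 (SE 0.11; 95% interval 0.09 to 0.54; limma adjusted p = 0.110), and with median centring of the arrays it was 0.37 and past the threshold (limma adjusted p = 0.0481). In cerebellum Rgs10 had 6.71, 6.97 and 7.11 in wild type and 6.69, 7.24 and 7.35 in Q111, a difference of 0.20 (SE 0.11; limma adjusted p = 0.428). The mean of 10 microglial genes was 6.72 ± 0.10 in wild-type and 6.80 ± 0.12 in Q111 striatum (SD, n = 6 arrays each), and it ran from 6.60 to 6.88 and from 6.66 to 6.95. Of its 8 genes past the filter, 3 rose and 1 fell in Q111 striatum, with Itgam under 4 in both genotypes and Trem2 under 4 in Q111. Of all 10766 genes tested, limma called 94 higher and 205 lower in Q111 striatum. The part of microglia in the Rgs10 values was not tested. The tissue difference of Rgs10 was 1.96 (SE 0.11; limma adjusted p = 6.01e-14) in wild type and 2.08 (SE 0.11; limma adjusted p = 1.94e-14) in Q111.

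Rgs12, a large R12 scaffold with PDZ, phosphotyrosine-binding and Ras-binding domains, came nearest to the threshold of the genes that missed it in striatum. The wild-type arrays 1 to 6 read 6.08, 5.93, 6.18, 6.00, 6.37 and 6.17, and the Q111 arrays 7.26, 6.76, 6.69, 6.07, 7.04 and 7.16. All Q111 arrays but number 4 lay above every wild-type array. The difference was 0.71 (SE 0.20; 95% interval 0.30 to 1.12; limma adjusted p = 0.0511), 0.84 within numbers 1 to 3 and 0.58 within 4 to 6. Without Q111 array 4 it was 0.86 (limma adjusted p = 0.0161). With values under 4 set to 4 the striatal difference was unchanged and the limma adjusted p was 0.00303. That setting turns every cerebellar value of Rgs12 into 4 and takes their scatter out of the pooled spread. The smaller p therefore says nothing more about the striatum. With only the striatal arrays the limma adjusted p was 0.0479. With the number set in the model it was 0.0816, within numbers 1 to 3 alone 0.0922, within 4 to 6 alone 0.341, and up to 0.116 on leaving out 1 array (limma throughout). In cerebellum Rgs12 read 3.34 ± 0.47 in wild type and 3.48 ± 0.30 in Q111 (SD, n = 6 arrays each), under the filter, and the genotype difference was 0.14 (SE 0.20; limma adjusted p = 0.799). The interaction was 0.57 (SE 0.28; limma adjusted p = 0.500). Its tissue difference in wild type was 2.78 (SE 0.20; limma adjusted p = 6.12e-12), or 2.12 with values under 4 set to 4. Rgs12 lies near Htt on chromosome 5, with 1 protein-coding gene, Msantd1, between them in the RefSeq table, and whether the region around the knock-in allele bears on its values was not tested.

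Rgs17, an RZ protein that acts on Gz and other Gi-type alpha subunits, rose in Q111 striatum. The wild-type arrays 1 to 6 read 9.31, 8.91, 9.09, 9.01, 8.95 and 8.94, and the Q111 arrays 9.53, 9.52, 9.35, 9.45, 9.73 and 9.53. Every Q111 array lay above every wild-type array. The difference was 0.48 (SE 0.10; 95% interval 0.27 to 0.69; limma adjusted p = 0.0137), 0.36 within numbers 1 to 3 and 0.60 within 4 to 6, and the limma adjusted p was 0.0282 with the number set in the model. Within numbers 1 to 3 alone the limma adjusted p was 0.239, and within 4 to 6 alone 0.0678. Over the 24 fits that each left out 1 array the difference ran from 0.44 to 0.54, with a limma adjusted p of 0.00734 to 0.0362. The other probe set of Rgs17 gave 0.24 (SE 0.12; limma adjusted p = 0.304), with 5 of 6 Q111 arrays above the wild-type mean.

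In cerebellum Rgs17 had a low of 7.67, a median of 7.89 and a high of 8.22 in wild type and 7.52, 7.87 and 8.07 in Q111. The difference there was -0.08 (SE 0.10; limma adjusted p = 0.789). The interaction was 0.56 (SE 0.14; limma adjusted p = 0.115), so the test did not show that the genotype effects of the tissues differ. The mean of 9 cortical neuron genes ran from 5.76 to 6.37 in wild-type striatum and from 6.03 to 6.94 in Q111 striatum. Of its 8 genes past the filter, 8 had a positive difference and 2 rose past the threshold, and Emx1 was under 4 in both groups. Among all 10766 genes tested, 4543 had a positive difference and 94 rose past the threshold in striatum. The part of cortical tissue in the Rgs17, Rgs12 and Rgs10 values was not tested. The tissue difference of Rgs17 was 1.13 (SE 0.10; limma adjusted p = 5.23e-10) in wild type and 1.70 (SE 0.10; limma adjusted p = 2.87e-13) in Q111.

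Rgs20, the RZ protein selective for Gz, had a low of 9.16, a median of 9.79 and a high of 10.14 in wild-type striatum and 9.41, 9.71 and 9.97 in Q111 striatum. In cerebellum it had 6.39, 6.95 and 7.25 in wild type and 6.36, 6.76 and 6.99 in Q111. The genotypes overlapped in both tissues and the tissues did not overlap. The tissue difference was 2.81 (SE 0.16; limma adjusted p = 7.95e-14) in wild type and 3.00 (SE 0.16; limma adjusted p = 2.26e-14) in Q111, and the genotype difference was -0.01 (95% interval -0.34 to 0.32; limma adjusted p = 0.985) in striatum. In cerebellum it was -0.20 (SE 0.16; limma adjusted p = 0.607). The dimmer Rgs20 probe set gave a wild-type tissue difference of 3.58 (3.36 with values under 4 set to 4) and a genotype difference of -0.05 (limma adjusted p = 0.921) in striatum. Rgs19, the RZ protein first found as a partner of a Gi alpha subunit, was higher in striatum by 1.10 in wild type (limma adjusted p = 2.99e-09) and also in Q111 (limma adjusted p = 1.19e-11). Its genotype difference was 0.10 (limma adjusted p = 0.661) in striatum and -0.29 (limma adjusted p = 0.235) in cerebellum. The other probe set of Rgs19 gave a wild-type tissue difference of 1.80 (limma adjusted p = 1.54e-09) and, with the opposite sign in striatum, genotype differences of -0.18 (limma adjusted p = 0.627) and -0.17 (limma adjusted p = 0.714).

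**Figure D3:**
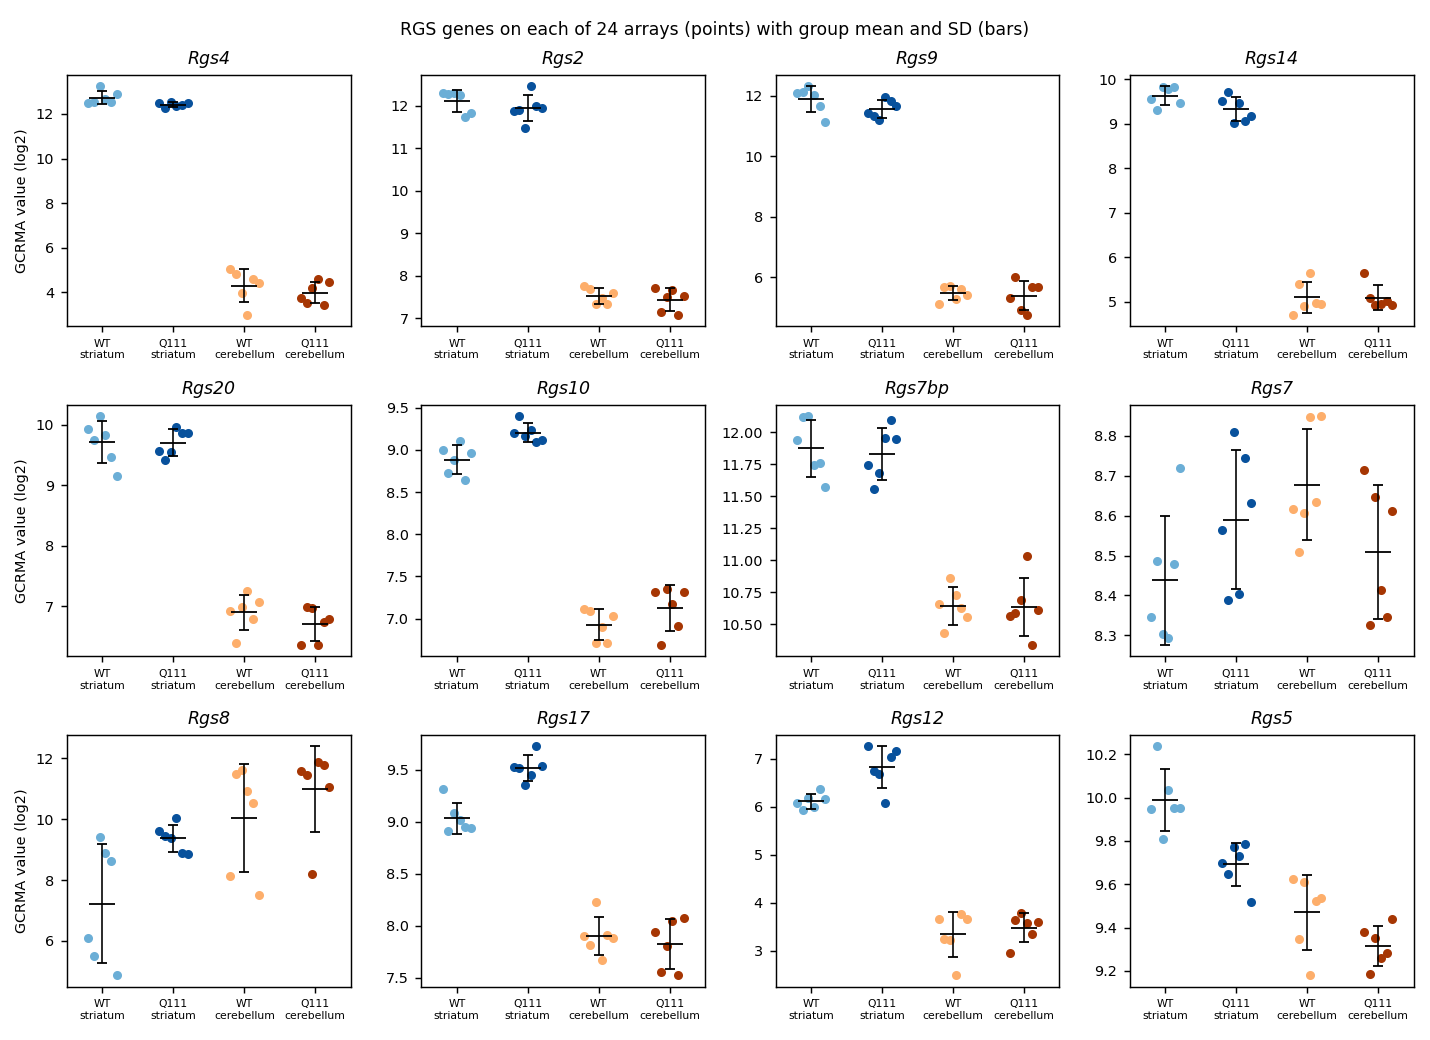
Log2 value of every array for 12 RGS genes by their brightest probe sets, grouped by genotype and tissue (points are arrays, 6 per group; bars are mean and SD; each panel has its own scale). The tissues separate widely for Rgs4, Rgs9, Rgs2 and Rgs14, the genotypes overlap for these, and Rgs8 is the most scattered.

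Counted over the set, the genotype comparisons called few RGS probe sets. In striatum limma called 2 of 30 against 2.87% of all probe sets tested. Rgs17 was the 1 higher (0.834% of all were) and Rgs5 the 1 lower (2.03% of all were), and 9 of 30 had an unadjusted p under 0.05, against 19% of all probe sets. The same 2 were the only ones of the 30 whose groups did not overlap, against 2.39% of all probe sets. With median centring of the arrays the striatal calls were 3 higher and 0 lower, in place of 1 and 1. In cerebellum limma called 0 of 30 against 0.458% of all, with 2 at an unadjusted p under 0.05 (13.8% of all), and for the interaction 0 of 30 against 0.0868%, with 4 at an unadjusted p under 0.05 (10.1% of all). The median genotype difference of the 30 was -0.05 in striatum, where it was -0.02 over all probe sets, and -0.09 in cerebellum, where it was -0.05. By family, the striatal calls were 1 of 6 R4 genes, 0 of 3 R7 genes, 0 of 3 R12 genes and 1 of 3 RZ genes. None of the genes with the widest striatal excess, Rgs4, Rgs9, Rgs11, Rgs2 and Rgs14, passed in either tissue. Of all genes tested, 2.78% passed in striatum and 0.446% in cerebellum. The striatal differences of these 5 lay between -0.33 and -0.17, where 6222 of all 10766 genes had a negative difference. Rgs9, Rgs11 and Rgs2 changed sign in striatum between the number sets, while Rgs4 and Rgs14 did not.

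**Figure D4:**
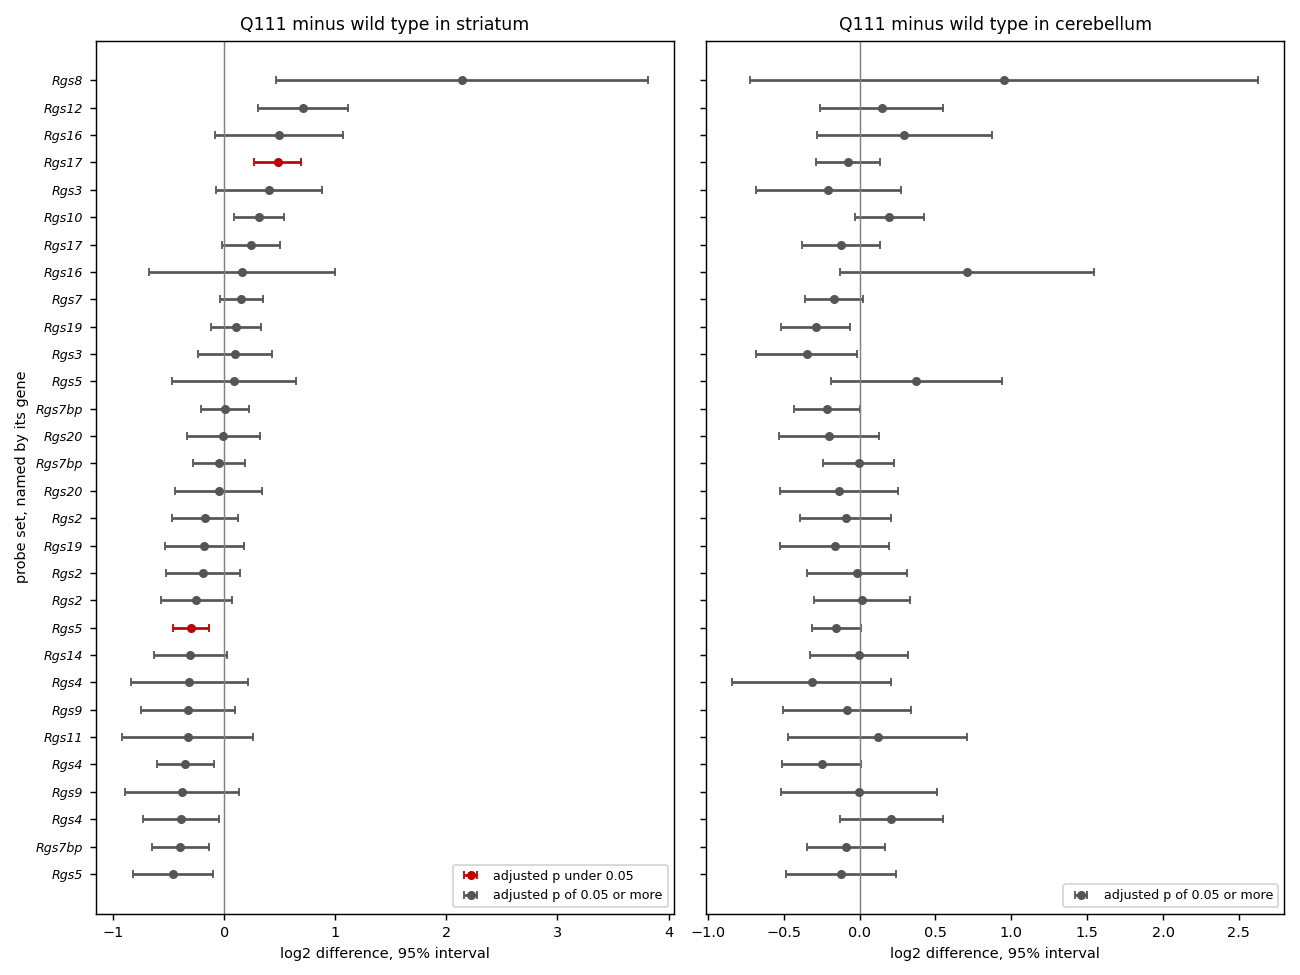
Log2 difference between Q111 and wild type for each of the 30 RGS probe sets past the filter, named by its gene, in striatum and in cerebellum (6 arrays per group; red marks an adjusted p under 0.05; bars are 95% confidence intervals from limma). 1 probe set each of Rgs17 and Rgs5 is past the threshold in striatum, Rgs8 has the largest difference and the widest interval, and the cerebellum has no call.

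Within the replicate number sets, several RGS genes went opposite ways in striatum. A genotype by number set term, added after seeing the data, was called by limma for 5 of 30 RGS probe sets (16.7%), against 2.9% of all probe sets. In cerebellum it was called for 0 of 30, against 0.00482% of all. Of the 30 striatal probe sets, 11 had a negative difference within numbers 1 to 3 and a positive one within 4 to 6, 3 the reverse, and 16 kept one sign.

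Rgs16 had the largest such product. Wild-type arrays 1 to 6 read 4.21, 4.21, 3.96, 4.88, 5.83 and 6.47, and Q111 arrays 5.95, 5.25, 5.96, 4.76, 5.05 and 3.55. Q111 was thus above wild type in every array of numbers 1 to 3 and below or within the wild-type range in numbers 4 to 6. The difference was 1.60 in the first set and -1.27 in the second (product 2.87, SE 0.59; limma adjusted p = 0.0127). The other Rgs16 probe set gave 1.16 and -0.17 and was not called (limma adjusted p = 0.163). Rgs11 ran the other way, with wild-type arrays at 8.11, 7.51, 7.93, 7.20, 7.21 and 7.16 and Q111 arrays at 6.79, 6.75, 6.82, 7.42, 7.67 and 7.69. Its difference was -1.06 in numbers 1 to 3 and 0.40 in 4 to 6, with no overlap within either set (product -1.46, SE 0.36; limma adjusted p = 0.0331). In cerebellum, where all its values were under 4, Rgs11 had the same order, with -0.73 and 0.96. That product was -1.69 (SE 0.36, limma adjusted p = 0.274) and was not called.

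Rgs7bp and Rgs9 showed the same order as Rgs11. For Rgs7bp the difference was -0.40 in numbers 1 to 3 and 0.31 in 4 to 6 (product -0.71, SE 0.19; limma adjusted p = 0.0497), and a further Rgs7bp probe set gave -0.39 and 0.40 (limma adjusted p = 0.00375). The third Rgs7bp probe set kept one sign, with -0.57 and -0.22 (limma adjusted p = 0.480). For Rgs9 the brightest probe set gave -0.86 and 0.21 (limma adjusted p = 0.119), and the dimmer one gave -1.29 and 0.52 (limma adjusted p = 0.00536). Rgs2 gave -0.55 and 0.20 (limma adjusted p = 0.123), and Rgs20 -0.43 and 0.41 (limma adjusted p = 0.0979). By contrast, Rgs17 (0.36 and 0.60), Rgs5 (-0.29 and -0.30) and Rgs4 (-0.33 and -0.30) kept their signs.

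Some marker lists also differed between the number sets. The mean of 6 thalamic genes differed between genotypes in striatum by 1.05 in numbers 1 to 3 and by -0.93 in 4 to 6, and it ran from 5.16 to 7.23 over the wild-type and from 5.00 to 6.85 over the Q111 arrays, with Lef1 under 4 in both. That of 8 striatal projection neuron genes differed by -0.44 and 0.20, running from 11.85 to 12.78 in wild type and from 11.86 to 12.54 in Q111, with 0 genes under 4. That of 6 choroid plexus genes differed by -0.33 and 0.26, running from 5.08 to 7.57 in wild type and from 5.59 to 8.16 in Q111, with Aqp1 and Otx2 under 4 in both. That of 6 granule neuron genes differed by 0.43 and -0.35, running from 4.00 to 4.93 in wild type and from 4.09 to 4.68 in Q111, with Fat2, Gabra6 and Zic2 under 4 in both and Cbln1 in wild type. The cortical neuron list kept one sign in striatum, with 0.58 and 0.35. The choroid plexus list differed more widely in cerebellum, by -0.96 in numbers 1 to 3 and 1.26 in 4 to 6. It ran there from 4.20 to 6.56 in wild type and from 3.73 to 7.16 in Q111. Aqp1 was under 4 there in both genotypes and Kl in wild type. In cerebellum the thalamic list differed by -0.25 and 0.01. The striatal projection neuron list differed there by 0.04 and -0.09, and the granule neuron list by 0.004 and -0.04. Over all 12 striatal arrays 0 of 5 thalamic, 0 of 8 striatal projection neuron, 0 of 5 choroid plexus and 0 of 6 granule neuron genes past the filter were called between genotypes. Of all genes tested, 2.78% were called. The part of these cells in the Rgs16, Rgs11, Rgs7bp and Rgs9 values was not tested.

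**Figure D5:**
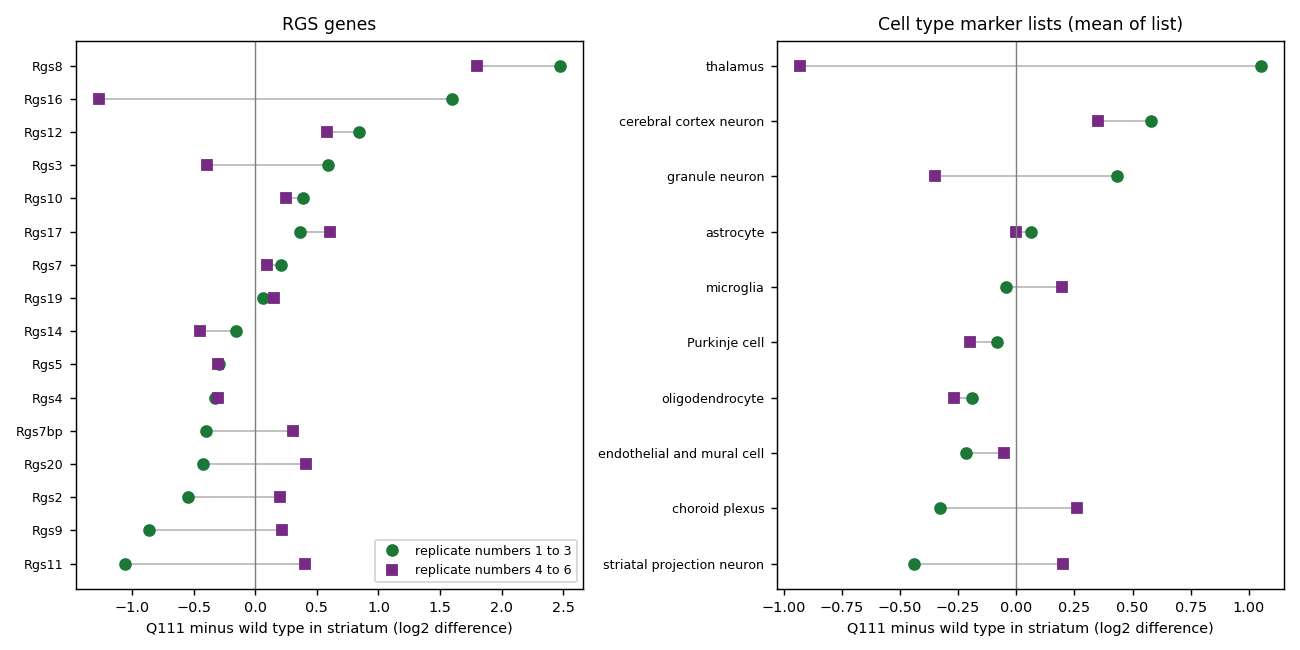
Log2 difference between Q111 and wild type in striatum for each of 16 RGS genes (left) and for the mean of each cell type marker list (right), within replicate numbers 1 to 3 and within 4 to 6 (3 arrays per genotype in each set). Rgs16 lies at 1.60 in the first set and -1.27 in the second, Rgs11 at -1.06 and 0.40, while Rgs17 and Rgs5 keep one sign, and the thalamic list lies at 1.05 and -0.93.

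The rest of the G protein cycle was read from lists of its components, chosen like the members with earlier results of these data known. Of 11 alpha subunits past the filter, 1 rose and 0 fell in Q111 striatum, where 2.78% of all 10766 genes tested were called by their brightest probe set. It was Gnaq, the alpha subunit that couples receptors to phospholipase C and is a substrate of Rgs2 and Rgs4. Gnaq was 10.27 ± 0.11 in wild type and 10.57 ± 0.12 in Q111 striatum (SD, n = 6 arrays each), a difference of 0.30 (SE 0.07; limma adjusted p = 0.0163) seen in 6 of 6 Q111 arrays. It was 0.24 within numbers 1 to 3 and 0.36 within 4 to 6, and the limma adjusted p was 0.0341 with the number set in the model. In cerebellum the Gnaq difference was -0.09 (SE 0.07; limma adjusted p = 0.593), and the interaction was 0.39 (SE 0.09; limma adjusted p = 0.0911). The median striatal difference of the 11 alpha subunits was 0.00, where over all 10766 genes it was -0.03.

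In the other lists limma called 0 genes between genotypes in either tissue: 11 beta and gamma subunits other than Gnb5, 9 other proteins with an RGS domain, 5 receptor kinases and arrestins, 5 activators and chaperones of G proteins and 7 receptors that striatal RGS proteins act on. Over all genes tested, 2.78% were called in striatum and 0.446% in cerebellum. The receptor list had a median of -0.02 in striatum and -0.05 in cerebellum. Each of these lists was also read by its 2 widest tissue differences in wild-type mice, striatum minus cerebellum, where 73.8% of all genes tested were called. Gng7, the gamma subunit that pairs with the striatal alpha subunit Gnal, was higher in striatum by 6.62 (limma adjusted p = 2.42e-20). Gng4, another gamma subunit, was higher by 4.48 (limma adjusted p = 1.04e-14), or by 4.07 with values under 4 set to 4, since its cerebellar mean was 3.66. The dopamine receptor Drd2, whose signal Rgs9 limits, was higher by 9.42 (limma adjusted p = 3.73e-23), but its cerebellar mean of 2.06 was under the filter, and with values under 4 set to 4 the difference was 7.48. The glutamate receptor Grm5, which couples to Gq alpha subunits, was higher by 8.33 (limma adjusted p = 2.60e-22), or by 8.16 with that floor. The striatal genotype difference was -0.25 (SE 0.18; limma adjusted p = 0.476) for Drd2 and -0.14 (SE 0.17; limma adjusted p = 0.728) for Grm5.

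Pcp2, a Purkinje cell protein that binds Gi and Go alpha subunits, was lower in striatum (-10.98; limma adjusted p = 9.43e-30). Its striatal mean of 3.49 was under the filter, and with values under 4 set to 4 the difference was -10.47. Ric8b, a chaperone of Gnal, was higher in striatum by 2.03 (limma adjusted p = 1.25e-14). Grk3, a receptor kinase, was lower in striatum (-1.37; limma adjusted p = 8.64e-11), and Arrb1, an arrestin, was higher by 0.82 (limma adjusted p = 8.87e-09). Of the other proteins with an RGS domain, the sorting nexin Snx13 was lower (-0.82; limma adjusted p = 4.28e-10), and so was Arhgef1 (-0.81; limma adjusted p = 2.73e-05).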

How the data were processed

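Per the labels, RNA was isolated with Trizol and a Qiagen column and carried biotin. The values the authors deposited were made with GCRMA, per the submitters' processing notes, which name no version; their log base is not stated, and from their range they were read as log2 values. The authors normalised and summarised these log2 values per probe set with GCRMA before they were deposited, per the submitters' processing notes. GCRMA subtracts a sequence-based background and gives the arrays normalised together 1 distribution, so it can pull low values together. Of 45101 probe sets, 64 controls were left out, and 20738 (46.0%) with a mean of at least 4 in either tissue were tested. A model with 1 mean per group was fitted to all 24 arrays with limma 3.58.1 in R 4.3.3 (20 residual degrees of freedom, prior 3.22). P-values were adjusted by Benjamini-Hochberg over all tested probe sets, with a threshold of 0.05, and the model was tested on simulated data.

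Every RGS member was named, those named with the rule and those called were given in every group, and each pathway list gave its called genes or the 2 widest tissue differences. The members and lists were chosen with earlier results of these data known. Genes near Htt and Rgs8 were named after their values were seen, as neighbours. Promoter windows and gene order come from RefSeq tables (GRCm38.p6). Alternatives covered the filter, scaling, prior, array weights, blocks, number sets, thresholds and leaving out each array. Deviations of arrays with one replicate number correlated at -0.409 to -0.0881 between genotypes in striatum, -0.423 to 0.119 in cerebellum, and between the tissues at -0.0043 to 0.183 in wild type and -0.0547 to 0.142 in Q111. Over 0.1 were 0, 2, 3 and 2 of 6 numbers, so the numbers were not taken as pairs.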

Additional observations from a re-analysis of the deposited data

Results flagged for a closer look

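Over the 16 tested genes and 4 groups, 64 groups of 6 arrays were searched for an array far from the other 5, which chance alone gives in about 1 group in 20. It was found in 2. Rgs14 read 5.65 on Q111 cerebellum array 1, while the other 5 read 4.93 to 5.08. Rgs8 read 8.19 on Q111 cerebellum array 3, while the other 5 read 11.07 to 11.89.

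For 3 genes the striatal genotype difference differed between replicate numbers 1 to 3 and 4 to 6 by limma's test of the product over 12 arrays. The first set minus the second was -1.46 for Rgs11, 2.87 for Rgs16 and -0.71 for Rgs7bp.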

How the results depend on the processing

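The striatal count of 2 called RGS probe sets was the only count of calls that moved by over 1.5 times. It was 1 without a filter, 1 with the number set as a block, 0 with numbers 4 to 6 alone, 4 with values under 4 set to 4, 0 at a threshold of 0.01, 4 at 0.10, and 1 to 3 on leaving out single arrays. With the replicate number as a block within tissue it was 0, with Rgs17 at a limma adjusted p of 0.0650 and Rgs5 at 0.0838 (Rgs12 at 0.104), and with a block within genotype, added after seeing the data, it was 1; the blocks changed no other count by that much. Rgs12 passed with quantile normalisation (limma adjusted p = 0.0385), median centring (0.0396), a filter at 6 (0.0414), a trended prior (0.0471), only the striatal arrays (0.0479) and array weights (0.0493). Rgs5 was lost with no filter (limma adjusted p = 0.0578) and only the striatal arrays (0.0638). Rgs16 passed within numbers 1 to 3 (1.60; limma adjusted p = 0.0319). Striatal Rgs8 missed the threshold in every alternative run at 0.05, with limma adjusted p from 0.0568 to 0.338; its tissue difference in Q111 passed without Q111 cerebellum array 3 (-2.18; limma adjusted p = 0.0156) and with only the groups compared (limma adjusted p = 0.0135). The causes of these changes were not tested. Values near the filter, such as cerebellar Rgs4, Rgs11 and Rgs12, give only rough differences. Setting values under 4 to 4 removes their scatter from the pooled spread, so a smaller striatal p under that setting adds no support.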
